A study of Mus musculus with 20 samples.

Results

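Liver X receptors (LXRs) are nuclear receptors that sense oxysterols, and a part of their targets moves sterols out of cells or changes the lipids of membranes. The 9 genes examined here are named members of that part, namely Abca1, Abcg1, Abcg5, Abcg8, Mylip, Rnf145, Lpcat3, Arl4c and Smpdl3a. They were taken by gene name from a table of 54532 genes, and each of the 9 names was found once. RNA of both organs, kidney and liver, was sequenced from male C57BL/6 mice, 5 with the genotype label Lxrα-/- and 5 labelled wild type, which gives 20 libraries in 4 groups of 5. The groups are labelled knockout kidney, wild-type kidney, labelled knockout liver and wild-type liver. The labels name no treatment. Age, diet and the exons deleted are not given in the sources used here.

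Both receptors of the family, Lxrα (Nr1h3) and Lxrβ (Nr1h2), bind DNA as partners of RXR at an element called DR4, a direct repeat of AGGTCA with a spacer of NNNN. Without an agonist they can hold targets down through corepressors, and with one they raise them. In the liver the pathway is known for sterol secretion into bile, for HDL formation and for fat synthesis, and in macrophages for efflux of cholesterol from foam cells.

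The 20 libraries held between 23421561 and 35376342 counts each. Nr1h3 itself was higher where the label says knockout. In kidney it stood at 126 ± 21.7 CPM (counts scaled by library total and by TMM factors set within each tissue, so that CPM of kidney and liver are not on one scale) in labelled knockout mice and at 52.1 ± 2.27 CPM in wild type, and in liver at 167 ± 18.04 CPM in labelled knockout mice and at 98.2 ± 13.6 CPM in wild type (SD, n = 5 each), and edgeR called both (adjusted p = 0.00209 and 0.00277). A count over the whole gene cannot tell a deleted exon from an intact one. These values thus show no loss of Nr1h3 counts, and they cannot decide whether the label holds. Every direction below is by the genotype as labelled. Nr1h2 was not called in kidney or in liver (log2 fold changes 0.05 and -0.08, edgeR adjusted p = 0.884 and 0.763). Hepatocyte markers summed to between 48551 and 80864 CPM in labelled knockout liver and between 86120 and 114513 CPM in wild-type liver, and proximal tubule markers to between 42382 and 56861 CPM in labelled knockout kidney and between 23718 and 39385 CPM in wild-type kidney. Wild-type kidney 3 stood apart with 50.8% of its counts from mitochondrial genes, and wild-type kidney 1 had 7.21%, against 12.6% to 21.1% in the other 8 kidneys.

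The promoters are shown first, because Abca1 and Rnf145 share a DR4-like stretch and Abcg5 and Abcg8 share a start region. RefSeq windows on GRCm38 (the mm10 assembly), from 250 bases before to 50 bases after each start, were at hand for 7 of the 9 genes, 10 windows in all. The DR4 letters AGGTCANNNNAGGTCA were searched on both strands. With up to 3 mismatches outside the spacer, a match was found in windows of Abca1, Rnf145 and Arl4c, and 21.9% of all 32851 mouse windows hold such a match, so its presence alone sets little apart. The matches of Abca1 (chr4:53159947-53159962, 67 to 52 bases before the start) and of Rnf145 (chr11:44520197-44520212, 92 to 77 bases before the start) had in common the stretch GGGTTACTAC, in capitals here, which was chosen after the sequences were seen. They read as follows in the DR4 orientation, which is the strand opposite to the gene for Abca1 and the strand of the gene for Rnf145.
Abca1 element: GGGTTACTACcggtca
Rnf145 element: GGGTTACTACagttca
The stretch occurs on either strand in 12 of the 32851 windows (0.0365%), among them the Abca1 and Rnf145 windows it was read from. This share is a description and adds no support. The other windows of Rnf145, around starts at positions 44518956 and 44519377, lack it, and their best DR4 matches have 4 mismatches. The Rnf145 element lies inside the annotated gene, which starts at position 44518964. A match is a description of these letters, and binding was not measured.

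The windows around these elements follow, each on the strand of its gene, so that the Abca1 element appears as its reverse complement, with the element in capitals for Abca1 (chr4:53159846-53160145, minus strand) and for the window of the Rnf145 start at position 44520289, one of 3 windows of that gene (chr11:44520039-44520338, plus strand). The window of Abcg8 shown (chr17:84682871-84683170, plus strand) has in capitals the 109 bases between the start of Abcg5 at position 84683011, read leftward on the minus strand, and a start of Abcg8 at position 84683121, read rightward. Another window of Abcg8, around a start at position 84676302, is not shown.
Abca1 window: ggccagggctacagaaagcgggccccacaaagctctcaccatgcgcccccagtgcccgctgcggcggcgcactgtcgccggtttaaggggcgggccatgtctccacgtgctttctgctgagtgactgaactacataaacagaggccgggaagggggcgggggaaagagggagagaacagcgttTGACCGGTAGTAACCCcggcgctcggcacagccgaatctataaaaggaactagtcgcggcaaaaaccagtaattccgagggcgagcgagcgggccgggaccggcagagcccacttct
Rnf145 window: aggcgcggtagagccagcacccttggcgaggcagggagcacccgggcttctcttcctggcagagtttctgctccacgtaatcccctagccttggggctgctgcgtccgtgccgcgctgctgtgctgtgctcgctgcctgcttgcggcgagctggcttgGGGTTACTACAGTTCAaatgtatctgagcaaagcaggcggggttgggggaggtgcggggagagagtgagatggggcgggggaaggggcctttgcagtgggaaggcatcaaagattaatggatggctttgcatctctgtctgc
Abcg5 and Abcg8 shared window: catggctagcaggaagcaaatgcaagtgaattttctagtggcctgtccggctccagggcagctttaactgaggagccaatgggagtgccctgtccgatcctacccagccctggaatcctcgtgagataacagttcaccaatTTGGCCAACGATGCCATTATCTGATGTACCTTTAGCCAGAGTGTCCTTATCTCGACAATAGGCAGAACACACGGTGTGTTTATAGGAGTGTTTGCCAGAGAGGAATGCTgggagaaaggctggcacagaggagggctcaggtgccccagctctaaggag
The window of Abcg5 and this window of Abcg8 overlap by 209 bases. Neither holds a DR4 match with up to 3 mismatches, nor does the other window of Abcg8 or a window of Lpcat3 or Mylip, which says nothing of elements elsewhere.

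Levels per length (FPKM, computed from the counts and the deposited gene lengths with TMM factors set over all 20 libraries, so that tissues share one scale) set the 9 genes apart by tissue. In wild-type kidney Smpdl3a was highest with 104 ± 65.6 FPKM, although wild-type kidney 3 at 11.2 FPKM overlapped the next gene, followed by Lpcat3 with 25.5 ± 6.26, Rnf145 with 7.12 ± 1.19 and Mylip with 5.20 ± 1.32 FPKM. The ranges of Rnf145 and Mylip overlapped. Arl4c (1.56 ± 0.377), Abca1 (1.21 ± 0.209) and Abcg1 (1.03 ± 0.426 FPKM) overlapped each other, and Abcg8 and Abcg5 lay at 0.0609 ± 0.0506 and 0.0573 ± 0.0323 FPKM. In wild-type liver Abcg5 was highest with 55.6 ± 10.9 FPKM, with Lpcat3 at 38.4 ± 4.60 and Abcg8 at 34.4 ± 4.61, and neighbours among these 3 overlapped. Abca1 (17.3 ± 2.88) and Smpdl3a (15.9 ± 2.79 FPKM) overlapped as well. Rnf145 at 5.93 ± 1.42 FPKM stood apart from its neighbours, Abcg1 (2.51 ± 0.601) and Mylip (2.30 ± 0.299) overlapped, and Arl4c was lowest with 0.722 ± 0.126 FPKM (SD, n = 5 for each level). The deposited length of Abcg1 is 4066 bases where GENCODE M21 has 7298 exonic bases, and its FPKM rests on the deposited one.

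**Figure D1:**
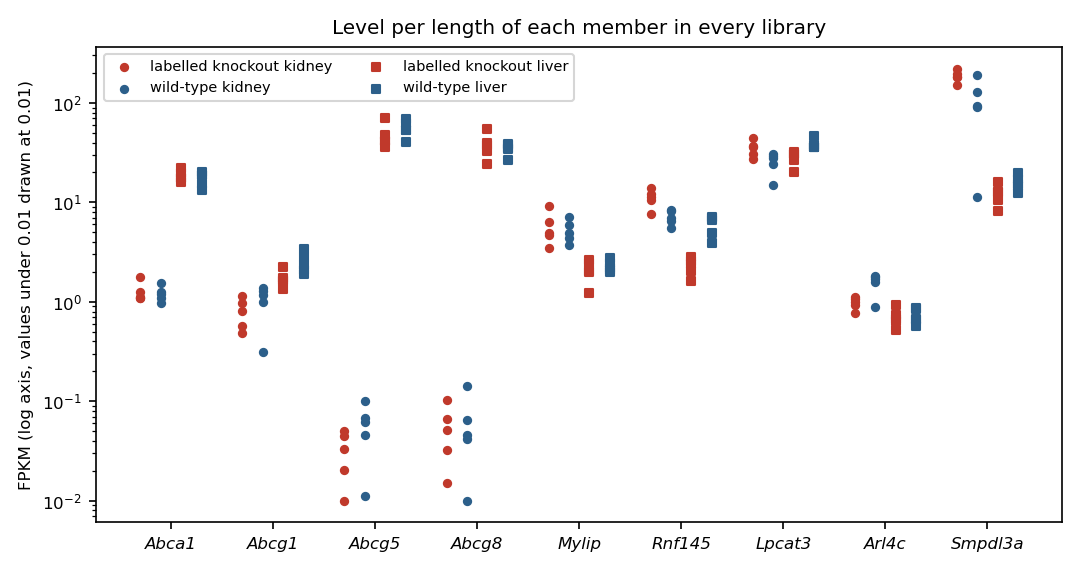
FPKM of the 9 genes in every library, on a log axis, with circles for kidney, squares for liver, red for labelled knockout and blue for wild type. Abcg5 and Abcg8 lie below 0.2 FPKM in the kidneys and above 20 FPKM in the livers, values under 0.01 FPKM are drawn at 0.01, and 1 wild-type kidney lies far below the others for Smpdl3a.

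Between the tissues of wild-type mice, 8 of the 9 genes were called, 3 higher in kidney and 5 lower, as were 53.8% of all 16645 genes tested, 29.6% higher and 24.2% lower. Abcg5 and Abcg8, whose proteins pair to pump sterols across the canalicular membrane of hepatocytes into bile, were lower in kidney, with fitted log2 fold changes of -9.80 (SE 0.37, edgeR adjusted p = 1.10e-10) and -9.21 (SE 0.43, 7.05e-10). They entered this fit through the livers alone, where they are high, so the filter itself favoured a call of lower in kidney. Their p-values are given as a description and add no support. Both are counted among the 5 lower genes, and among the 7 without overlap below. With 1 to 14 and 1 to 13 counts per wild-type kidney, the size of these folds rests on few counts. Abca1 and Abcg1 were also lower in kidney, with log2 fold changes of -3.83 (SE 0.20, edgeR adjusted p = 2.13e-09) and -1.27 (SE 0.32, 0.00426). Smpdl3a, Mylip and Arl4c were higher in kidney, with log2 fold changes of 2.71 (SE 0.51), 1.18 (SE 0.20) and 1.11 (SE 0.22) and edgeR adjusted p of 0.000446, 0.000166 and 0.000777. Lpcat3 differed by -0.59 (edgeR adjusted p = 0.0234), a call lost without wild-type mouse 1 (-0.55, 0.0671) or mouse 4 (-0.59, 0.0876). Rnf145 was not called (0.27, SE 0.20, 0.270). On the FPKM scale the kidneys and livers of 7 genes did not overlap, as for 43.9% of all genes (23.3% higher and 20.6% lower), the exceptions being Rnf145 and Smpdl3a. Scaling by library size alone raised the median of all genes to 0.69, against 0.05 with TMM, and moved Lpcat3 to 0.09, Abcg1 to -0.56 (adjusted p = 0.193) and Rnf145 to 0.94 (adjusted p = 0.00502).

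In liver, 1 of the 9 genes changed with the genotype label. Rnf145, which encodes a membrane ubiquitin ligase of the endoplasmic reticulum that in mouse liver acts on the SREBP pathway, was lower in labelled knockout liver. The transporters Abca1, Abcg5 and Abcg8 had fold changes whose intervals held 0, and Lpcat3, Abcg1 and Smpdl3a had negative ones that did not pass the test. Of all 14822 genes tested, 6.02% were called, 4.08% lower and 1.94% higher. The median log2 fold change of the 9 was -0.24, with 7 below 0, against -0.0032 over all genes tested.

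Abca1 (ENSMUSG00000015243, chromosome 4, 53030787 to 53159895, minus strand, on mm10 as are all gene positions) encodes the transporter that hands cholesterol and phospholipid to lipid-poor apolipoprotein A-I. It stood at 150.03, 183, 165, 143 and 132 CPM in labelled knockout livers 1 to 5, against 110.4, 128, 158, 156 and 170.2 CPM in wild-type livers 1, 3, 4, 5 and 6. The groups overlapped over most of their range, and the log2 fold change was 0.09 (95% interval -0.21 to 0.40, edgeR adjusted p = 0.760). Labelled knockout liver 2 lay above the wild-type range, and the other labelled knockout livers lay within it.

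Abcg1 (ENSMUSG00000024030, chromosome 17, 31057698 to 31115777, plus strand), which promotes efflux to HDL particles in macrophages, stood at 4.42, 5.70, 7.40, 5.23 and 5.32 CPM in labelled knockout livers, against 7.604, 6.91, 6.29, 10.9 and 9.42 CPM in wild-type livers. The lower end of the wild-type range lay inside that of the labelled knockout, and the log2 fold change of -0.55 (95% interval -0.96 to -0.15) did not pass the test (edgeR adjusted p = 0.107). Markers of Kupffer cells, the resident liver macrophages, moved alongside. Of 6 such markers, 5 were lower in labelled knockout liver, and their sum ran from 54.3 to 126 CPM there and from 201 to 321 CPM in wild type, with none of the 6 at 0. Cd5l, itself an LXR target, is 1 of the 5. Of 10 general macrophage markers 1 was lower, Adgre1, and the sum ran from 155 to 273 CPM in labelled knockout liver and from 215 to 342 CPM in wild type, with none at 0. The part of these cells in the Abcg1 values was not tested, and in a bulk sample fewer cells of a type and less RNA per cell cannot be told apart.

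Abcg5 (ENSMUSG00000040505, chromosome 17, 84658234 to 84683011, minus strand) stood at 155, 90.3, 105, 88.7 and 77.1 CPM in labelled knockout livers, against 150.02, 89.3, 117, 135 and 117 CPM in wild-type livers (log2 fold change -0.24, 95% interval -0.65 to 0.17, edgeR adjusted p = 0.538). Abcg8 (ENSMUSG00000024254, chromosome 17, 84676302 to 84700333, plus strand) stood at 169, 113, 100.3, 118 and 71.9 CPM in labelled knockout livers, against 105, 81.6, 114, 114 and 106 CPM in wild-type livers (0.14, 95% interval -0.27 to 0.55, adjusted p = 0.745). Both were highest in labelled knockout liver 1 and lowest in labelled knockout liver 5, and both pairs of groups overlapped. The annotated exons of these genes share 82 bases on opposite strands, 3.02% of those of Abcg5, and since the use of strand is not given in the sources used here, reads there cannot be assigned with certainty.

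Rnf145 (ENSMUSG00000019189, chromosome 11, 44518964 to 44565520, plus strand) stood at 16.4, 17.5, 15.2, 10.03 and 12.5 CPM in labelled knockout livers, against 30.5, 25.02, 42.1, 43.5 and 44.997 CPM in wild-type livers. Every labelled knockout liver lay below every wild-type liver, and the highest labelled knockout was 17.5 CPM where the lowest of the wild type was 25.02. The log2 fold change was -1.38 (SE 0.19, 95% interval -1.79 to -0.97, edgeR adjusted p = 0.00104). Among the alternatives it ran from -1.48 to -1.18, with adjusted p from 3.36e-09 to 0.0349. The sums of hepatocyte markers in the livers, given above, did not overlap between the genotypes either. Of these 6 markers 1, Alb, was lower and 2 had positive fold changes, with a median log2 fold change of -0.17 and none at 0. Lymphocyte markers, 5 of 8 lower and 1 higher, summed to between 4.82 and 8.13 CPM in labelled knockout liver and to between 9.51 and 14.1 CPM in wild type. Fibroblast and stellate cell markers, 3 of 8 lower, summed to between 119 and 234 CPM in labelled knockout liver and to between 176 and 382 CPM in wild type, with none of either list at 0. The part of these cells in the Rnf145 values was not tested.

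Mylip (ENSMUSG00000038175, chromosome 13, 45389742 to 45412022, plus strand), also called Idol, encodes a cytosolic ubiquitin ligase that marks lipoprotein receptors for degradation. It stood at 5.20, 6.33, 6.90, 3.15 and 5.28 CPM in labelled knockout livers, against 5.16, 5.47, 5.80, 6.30 and 7.21 CPM in wild-type livers. The groups overlapped almost fully (log2 fold change -0.16, 95% interval -0.59 to 0.27, edgeR adjusted p = 0.700). The other ligase of the set thus had a value near 0 where Rnf145 was lower, and the difference between these effects was not tested.

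Lpcat3 (ENSMUSG00000004270, chromosome 6, 124663027 to 124704418, plus strand), which puts polyunsaturated acyl chains into phosphatidylcholine, stood at 71.7, 83.4, 81.5, 80.0 and 52.2 CPM in labelled knockout livers, against 122, 95.2, 99.0, 94.5 and 95.7 CPM in wild-type livers. The labelled knockout livers lay below the wild-type livers without overlap, as Rnf145 did, and 6.95% of all genes tested did not overlap, 4.53% lower and 2.42% higher. The log2 fold change was -0.46 (SE 0.14, 95% interval -0.75 to -0.16), and the edgeR adjusted p of 0.0723 missed the threshold of 0.05. It passed by DESeq2 (-0.44, adjusted p = 0.0432) and without TMM scaling (-0.53, 0.0354). Exons of Emg1 on the opposite strand cover 334 bases, 10.2% of the exonic bases of Lpcat3, and Emg1 itself differed by 0.28 (edgeR adjusted p = 0.211), the other way.

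Arl4c (ENSMUSG00000049866, chromosome 1, 88673125 to 88702221, minus strand), a small GTPase tied to cholesterol transport to the surface of macrophages, stood at 2.32, 2.81, 4.13, 2.95 and 3.201 CPM in labelled knockout livers and at 2.87, 2.57, 2.99, 3.67 and 3.88 CPM in wild-type livers (log2 fold change -0.06, 95% interval -0.47 to 0.36, edgeR adjusted p = 0.906). Smpdl3a (ENSMUSG00000019872, chromosome 10, 57794335 to 57811830, plus strand), a secreted phosphodiesterase related to acid sphingomyelinase and known as an LXR-induced gene in human blood cells, stood at 21.4, 26.6, 17.8, 20.8 and 13.5 CPM in labelled knockout livers and at 20.4, 24.8, 25.6, 32.5 and 29.0 CPM in wild-type livers. The groups of Smpdl3a overlapped (log2 fold change -0.40, 95% interval -0.77 to -0.03, edgeR adjusted p = 0.210). At an unadjusted p under 0.05, Rnf145, Lpcat3, Abcg1 and Smpdl3a were lower in labelled knockout liver, 4 of 9, where 20.3% of all genes passed in either direction.

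**Figure D2:**
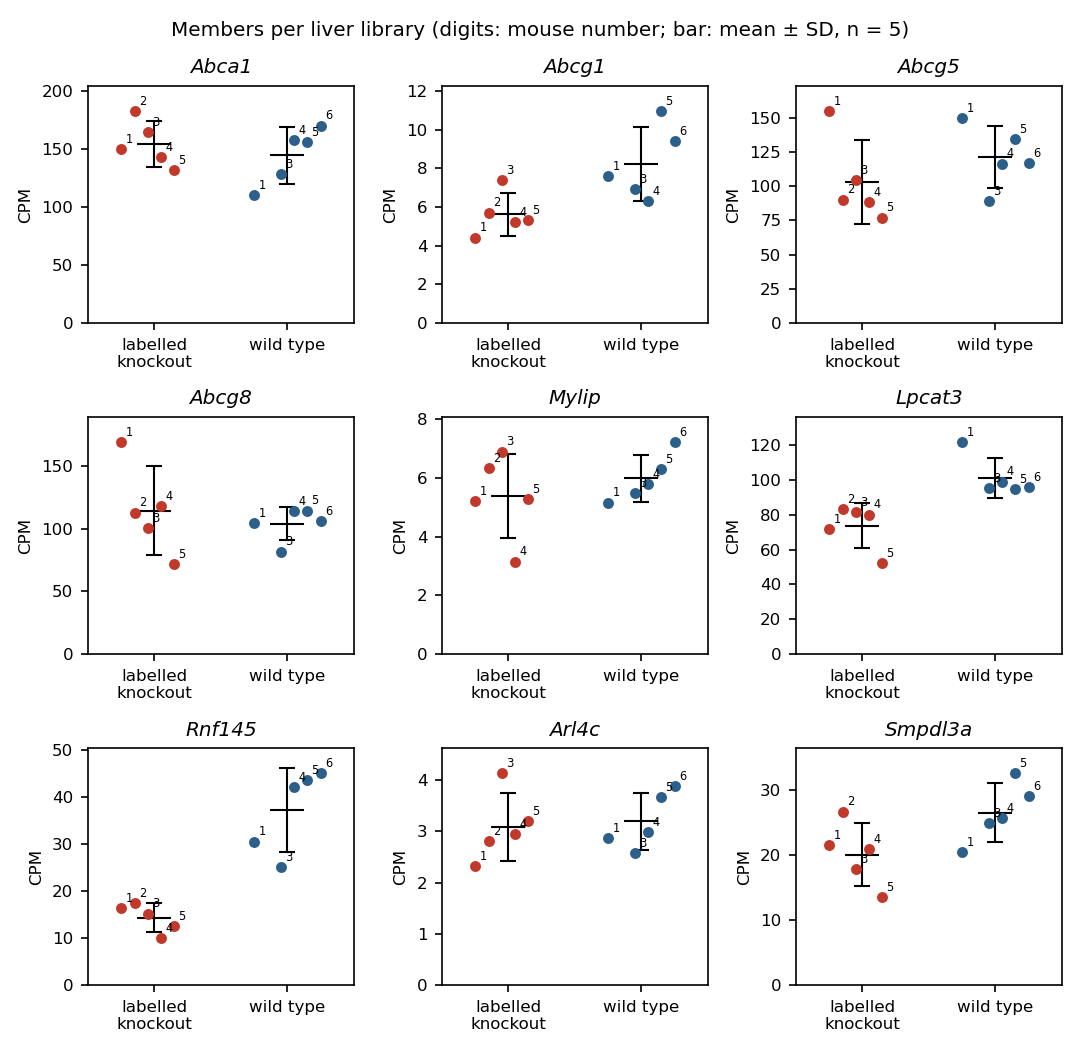
CPM of the 9 genes in each liver library, labelled knockout (red) left of wild type (blue), with the mouse number beside each point and the mean ± SD (n = 5) as a bar. The groups do not overlap for Rnf145 and Lpcat3, and they overlap for the other 7.

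In kidney, none of the 7 genes tested was called by edgeR, where 2.26% of 16500 genes were called, 0.394% higher and 1.87% lower. Rnf145 had a positive fold change and Arl4c a negative one with intervals that did not reach 0, and at an unadjusted p under 0.05 these were the 2 that passed, against 19.8% of all genes. DESeq2 called 1 gene, Rnf145, higher (0.67, adjusted p = 0.0246), and limma voom called 3, Rnf145 (0.56, 0.0221) and Smpdl3a (0.87, 0.0197) higher and Arl4c (-0.84, 0.00145) lower. Abcg5 and Abcg8 did not pass the filter on low counts. The median log2 fold change of the 7 was 0.12, against -0.07 over all genes tested, and the libraries of the genotypes overlapped for each of the 7, while 6.92% of all genes did not overlap.

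Rnf145 stood at 118, 73.6, 109, 101 and 131 CPM in labelled knockout kidneys 1 to 5, against 81.0, 56.3, 63.6, 67.9 and 79.5 CPM in wild-type kidneys 1, 3, 4, 5 and 6. Labelled knockout kidney 2 lay within the wild-type range and the other 4 above it. The log2 fold change was 0.61 (SE 0.18, 95% interval 0.22 to 1.01, edgeR adjusted p = 0.0989), and 0.60 without wild-type kidneys 1 and 3 (adjusted p = 0.0777).

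Arl4c stood at 5.32, 7.57, 6.69, 7.19 and 6.25 CPM in labelled knockout kidneys, against 11.6, 6.40, 12.3, 12.4 and 10.9 CPM in wild-type kidneys. Wild-type kidney 3 was within the labelled knockout range and the other 4 were above it. The log2 fold change was -0.70 (SE 0.20, 95% interval -1.14 to -0.26, edgeR adjusted p = 0.0931). Without wild-type kidney 3 it was -0.81 and passed (adjusted p = 0.0187), as it did without wild-type kidneys 1 and 3 (-0.85, 0.0129). Markers of some other cells ran the same way in kidney, and their part in the Arl4c values was not tested. Endothelial markers, 1 of 8 lower, summed to between 110.3 and 269.8 CPM in labelled knockout kidney and to between 288 and 323 CPM in wild type. Fibroblast and stellate cell markers, 4 of 8 lower, summed to between 74.4 and 140.4 CPM in labelled knockout kidney and to between 220.5 and 635 CPM in wild type. Lymphocyte markers, 4 of 8 lower, summed to between 4.25 and 6.56 CPM in labelled knockout kidney and to between 10.2 and 17.4 CPM in wild type. Of 10 general macrophage markers none was called, though none had a positive fold change. Their sums overlapped, at 102 to 182 CPM in labelled knockout kidney and 136 to 172 CPM in wild type. Bile duct markers, 0 of 5 called, overlapped as well, at 587 to 958 CPM and 574 to 1529 CPM. None of these markers was at 0 in either kidney group.

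Smpdl3a stood at 571, 387, 461, 462 and 487 CPM in labelled knockout kidneys, against 331, 30.1, 245, 236 and 494 CPM in wild-type kidneys. Wild-type kidney 3 had the lowest level of the 10 kidneys by a wide margin, and wild-type kidney 6 lay inside the labelled knockout range. The log2 fold change of 0.82 had a 95% interval from -0.20 to 1.85 (edgeR adjusted p = 0.340), and without wild-type kidneys 1 and 3 it was 0.54 (adjusted p = 0.214). Proximal tubule markers, of which 1 of 6 was higher, had non-overlapping sums between the genotypes in kidney, as given above, and their part in the Smpdl3a, Rnf145 and Lpcat3 values was not tested.

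Lpcat3 stood at 113, 144, 148, 125 and 177 CPM in labelled knockout kidneys, against 112, 63.6, 101, 121 and 124 CPM in wild-type kidneys (log2 fold change 0.44, 95% interval -0.0033 to 0.88, edgeR adjusted p = 0.256). Abca1 stood at 23.0, 13.9, 16.1, 14.0 and 14.0 CPM in labelled knockout kidneys and at 19.7, 14.7, 16.3, 12.8 and 15.5 CPM in wild-type kidneys (0.03, 95% interval -0.37 to 0.43, adjusted p = 0.927). Abcg1 ranged from 2.41 to 5.77 CPM in labelled knockout kidneys and from 1.67 to 6.94 CPM in wild-type kidneys (-0.40, 95% interval -1.16 to 0.36, adjusted p = 0.511). Mylip ranged from 13.8 to 37.1 CPM in labelled knockout kidneys and from 15.2 to 29.8 CPM in wild-type kidneys (0.12, 95% interval -0.44 to 0.68, adjusted p = 0.807). In each of these 4 the groups overlapped.

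Abcg5 had 0 to 5 counts per labelled knockout kidney, 14 in all, and 1 to 14 counts per wild-type kidney, 32 in all. As CPM over the summed libraries, with no TMM factor, this is 0.0968 (95% Poisson interval 0.0529 to 0.162) in labelled knockout kidney and 0.224 (0.153 to 0.316) in wild type, intervals that cover counting error only. Abcg8 had 35 counts in labelled knockout kidneys, 0.242 CPM (0.169 to 0.337), and 39 in wild-type kidneys, 0.273 CPM (0.194 to 0.373). In liver the same genes had 13883 and 15567 counts in the labelled knockout group, and 17836 and 15367 in wild type. Labelled knockout kidney 2 had no count of Abcg5, and with 3 counts as the limit that a count of 0 allows, a lower level could not be seen at this depth.

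**Figure D3:**
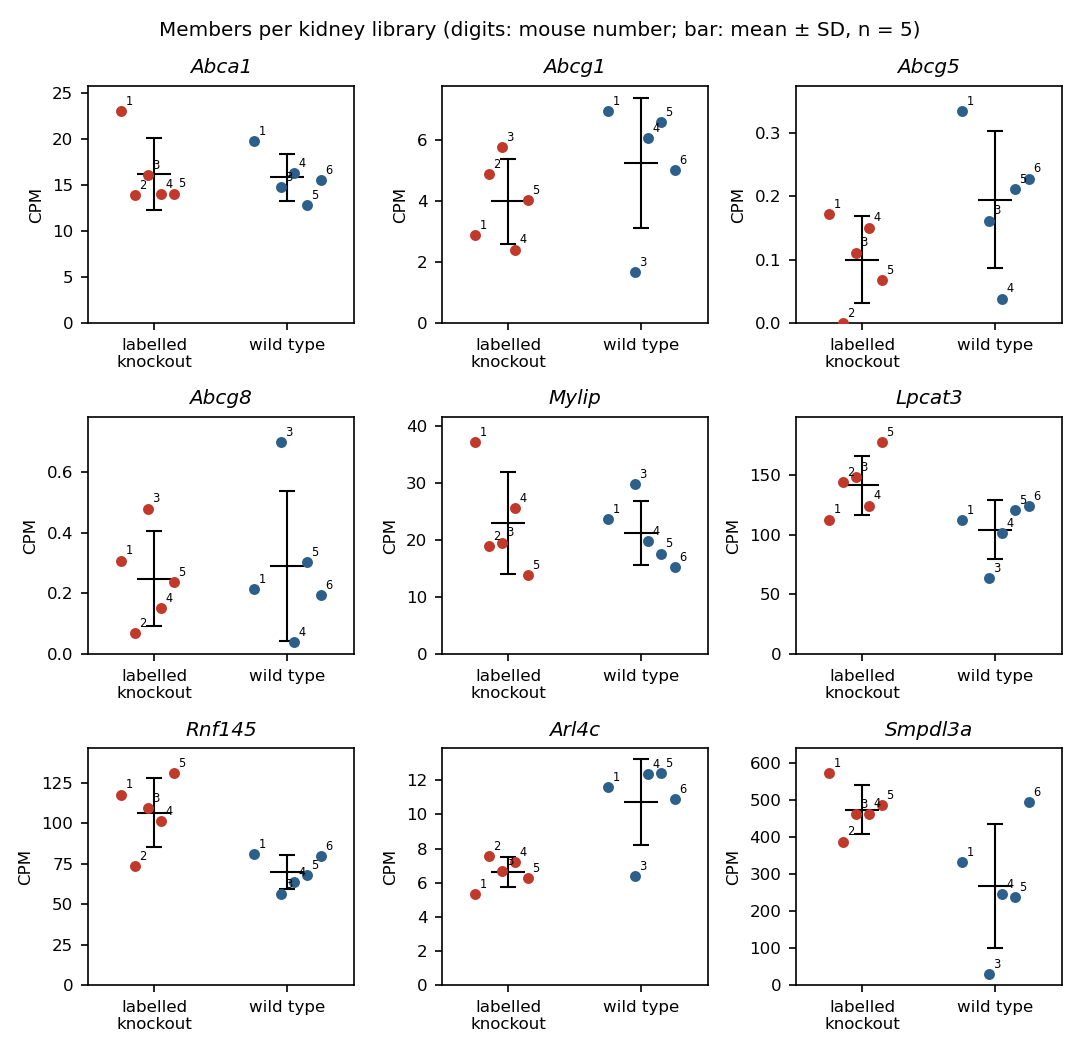
CPM of the 9 genes in each kidney library, labelled knockout (red) left of wild type (blue), with the mouse number beside each point and the mean ± SD (n = 5) as a bar. Wild-type kidney 3 is the lowest wild-type point for Rnf145, Lpcat3, Arl4c, Smpdl3a and Abcg1, and Abcg5 and Abcg8 stay below 1 CPM.

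The genotype effect of Rnf145 differed between the tissues. Kidney minus liver, its log2 effects differed by 2.02 (SE 0.27, 95% interval 1.45 to 2.58, edgeR adjusted p = 0.000194), and 1 of the 9 genes was called, where 1.51% of 17606 genes were, 0.937% with a positive difference and 0.568% with a negative one. It remained called in the 20 alternatives run, between 1.85 and 2.21. With mouse as a replicate block it was 1.996 (adjusted p = 0.00207). Without wild-type kidneys 1 and 3 it was 2.003 (adjusted p = 0.000597). On the scale shared by the tissues Rnf145 stood at 11.1 ± 2.30 FPKM in labelled knockout kidney and 7.12 ± 1.19 FPKM in wild-type kidney, and at 2.29 ± 0.466 FPKM in labelled knockout liver and 5.93 ± 1.42 FPKM in wild-type liver (SD, n = 5 each).

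Lpcat3 had a difference of 0.91 between the tissues (SE 0.26, 95% interval 0.38 to 1.45) and Smpdl3a one of 1.24 (SE 0.55, 0.10 to 2.38), and neither passed by edgeR (adjusted p = 0.0805 and 0.324). DESeq2 called Lpcat3 (0.93, adjusted p = 0.0212), and limma voom called Lpcat3 (0.70, 0.0213) and Smpdl3a (1.156, 0.0228). Arl4c differed the other way by -0.63 (95% interval -1.23 to -0.03, edgeR adjusted p = 0.339). Abca1 had -0.04 (95% interval -0.53 to 0.44), Abcg1 0.16 (-0.70 to 1.03) and Mylip 0.30 (-0.39 to 0.99). Abcg5 (-0.77) and Abcg8 (-0.21) passed the filter of this fit through the livers alone, and their values rest on the few kidney counts above.

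**Figure D4:**
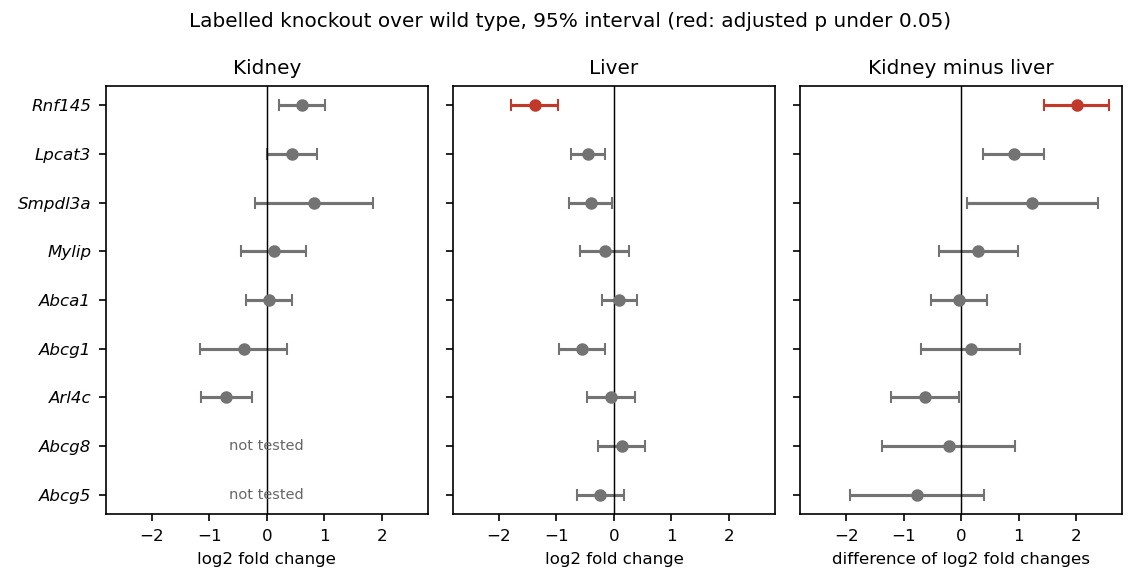
Log2 fold change of labelled knockout over wild type in kidney and in liver, and the difference of the fold changes, with 95% intervals from edgeR and red for an adjusted p under 0.05. Rnf145 is red in liver (-1.38) and in the difference (2.02), and Abcg5 and Abcg8 were not tested in kidney.

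Ratios of counts within a library need no scaling between libraries. The pairs were chosen after their values were seen, so the ratios are given as a description with no test. The log2 ratio of Rnf145 to Abca1 was -3.45 ± 0.234 in labelled knockout livers and -1.98 ± 0.216 in wild-type livers (SD, n = 5 each), with no overlap, as the values of each gene above already imply. In kidney the same log2 ratio was 2.72 ± 0.354 in labelled knockout mice and 2.14 ± 0.225 in wild type (SD, n = 5 each), and the groups overlapped. The log2 ratio of Rnf145 to Lpcat3 in liver was -2.37 ± 0.374 in labelled knockout mice and -1.47 ± 0.4502 in wild type (SD, n = 5 each).

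Abcg8 counts were 1.09, 1.25, 0.960, 1.33 and 0.932 times those of Abcg5 in labelled knockout livers, against 0.697, 0.913, 0.979, 0.849 and 0.904 times in wild-type livers. The groups overlapped in part, with labelled knockout livers 3 and 5 below wild-type liver 4. On the log2 scale the ratio was 0.14 ± 0.226 in labelled knockout livers and -0.21 ± 0.187 in wild-type livers (SD, n = 5 each).

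**Figure D5:**
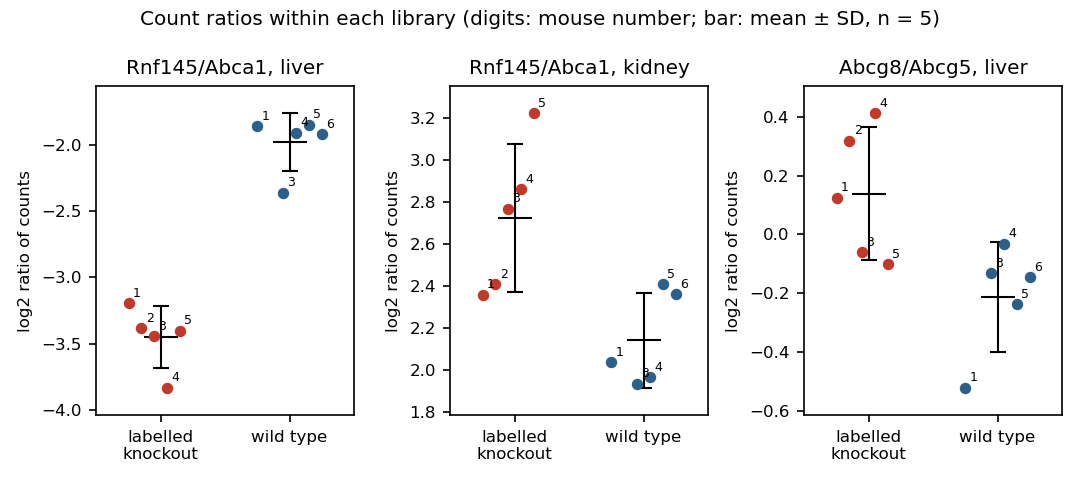
Log2 ratio of counts within each library for Rnf145 to Abca1 in liver and kidney and for Abcg8 to Abcg5 in liver, labelled knockout (red) left of wild type (blue), with mouse numbers and the mean ± SD (n = 5). The genotypes are apart in the first panel, at -3.45 and -1.98 on average, and overlap in part in the others.

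Other genes of the pathway are given by lists, chosen with earlier results of these data known. Over all genes tested, edgeR called 4.08% lower and 1.94% higher in liver, and 1.87% lower and 0.394% higher in kidney. These shares apply to every list below. Of 18 other LXR targets tested in liver, 8 had fallen in the labelled knockout livers and 0 had risen, with a median log2 fold change of -0.48. Those with the smallest p were Cd5l, a macrophage glycoprotein (-8.45, edgeR adjusted p = 1.22e-07), the desaturase Scd1 (-4.79, 1.91e-05), the phospholipid transfer protein Pltp (-3.43, 2.57e-05) and the elongase Elovl5 (-2.18, 0.000148). In kidney 1 of 16 was lower and none higher. Of 10 other ABCA and ABCG transporters tested in liver none was called, and none of 11 in kidney. In liver Abca8a (-0.95, edgeR adjusted p = 0.203) had the smallest p of that list, and in kidney Abca9 (-0.81, 0.150).

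Among the partners of efflux, 2 of 8 genes of sterol acceptors and HDL were lower in labelled knockout liver, Pltp and the apolipoprotein Apoa4 (-1.158, edgeR adjusted p = 0.0118), and 1 of 7 in kidney, Apoa4 (-2.07, 0.0151). Of 3 receptors that Mylip degrades, 2 were tested in liver, and 1 of these had a positive fold change that was not called. The other, Vldlr, was lower in labelled knockout liver, at 0.933 ± 0.580 CPM and at 3.42 ± 0.863 CPM in wild type (SD, n = 5 each, -1.88, edgeR adjusted p = 0.00589). It was not called in kidney (0.06, 0.861). Of 9 genes of the SREBP brake and of sterol-linked ubiquitin ligases, 1 was higher in labelled knockout liver, Srebf2, which encodes the main regulator of cholesterol synthesis (0.78, edgeR adjusted p = 0.0466), and none was called in kidney, where all 9 fold changes were positive with a median of 0.25.

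Of 17 genes of cholesterol synthesis, 8 were higher in labelled knockout liver, against 1.94% of all genes tested. None was lower, and the median was 0.99. Among the 8 were Msmo1 (1.59, edgeR adjusted p = 0.000745), Sqle (1.36, 0.00975), Mvk (1.43, 0.0106) and Cyp51 (0.99, 0.0143). None of the 17 was called in kidney. Beside Lpcat3, 2 of 8 other lysophospholipid acyltransferases were lower in labelled knockout liver, Lpcat2 (-0.87, edgeR adjusted p = 0.0144) and Mboat7 (-0.37, 0.0289), and none of 9 in kidney. Of 6 Arl4 GTPases and cytohesins, and of 7 sphingomyelinases and related genes, none was called in liver, and none of 6 and of 6 in kidney.

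The protein-coding genes with the profile nearest to a member over the 20 libraries, by root mean square distance of centred log2 CPM among 12887 genes, were Xdh for Abca1 (0.22), Acad8 for Lpcat3 (0.18), Pea15a for Arl4c (0.23), Frat2 for Abcg1 (0.38) and Ctps2 for Rnf145 (0.39). Second came Lifr for Abca1 (0.27), Ccdc71 for Lpcat3 (0.19), Naaa for Arl4c (0.25), Mrgpre for Abcg1 (0.39) and Frrs1 for Rnf145 (0.40). For Mylip the second nearest was Vezf1 (0.31), and for Smpdl3a it was 4833439L19Rik (0.45). Abcg5 lay nearest to Gulo (0.81) and Gckr (0.90), and Abcg8 to Gls2 (0.77) and Mst1 (0.79). The last 4 distances include kidney libraries with counts near 0, and all are on the log2 scale.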

How the data were processed

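RNA was sequenced from kidney and liver of 5 mice per genotype label. The authors deposited raw read counts per gene, per the file headers, with gene lengths, and a log2 FPKM table of 15454 genes that holds 8 of the 9 genes (not Abcg5). The submitters' processing notes name HISAT2 2.0.5, StringTie, DESeq2 1.16.1 and mm10 without their roles. The counter and the use of strand are not given in the sources used here. No column was left unmapped.

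The deposited counts were tested with edgeR 4.0.16 (R 4.3.3) by its quasi-likelihood F test after filterByExpr (minimum count 10) and TMM scaling. Each tissue was fitted alone, the difference of genotype effects on all 20 libraries, and the tissue comparison on wild-type libraries. P-values were adjusted by Benjamini and Hochberg over all genes tested, and a gene was called under 0.05. They measure the spread between these mice. CPM were computed from the counts with TMM factors set within each tissue, and FPKM and the profiles with factors set over all 20 libraries. Errors are SD, and SE for fold changes. The fits were tested on simulated data.

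Alternatives were DESeq2 1.42.0, limma 3.58.1 voom with quality weights, limma-trend on the deposited log2 FPKM values (no pseudocount added), other scalings, filters, samples, a replicate block and leaving out each library. The fits of the difference and of the tissue comparison without wild-type kidneys 1 and 3, and of the difference without labelled knockout livers 4 and 5, and the count ratios, were chosen after seeing the data.

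The 9 genes and all lists were chosen with earlier results of these data known. Named beside the 9 were at most 4 genes per list, those with the smallest p in the comparison described, and the 2 nearest profiles per gene among protein-coding genes of at least 1 CPM on average. A few genes that this rule names are not reported here. Positions are those of the deposited table and promoters come from RefSeq on GRCm38. Title numbers run from 1 to 5 in labelled knockout mice and are 1, 3, 4, 5 and 6 in wild type. The kidney and the liver library that share genotype and number were treated as coming from 1 mouse (an assumption), and their deviations from group means correlated between -0.12 and 0.28 in labelled knockout mice and between -0.17 and 0.39 in wild type. Only for labelled knockout kidney 1 and wild-type kidney 5 was the best-correlated liver of that genotype the one of equal number. These correlations thus do not bear out the pairing.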

Additional observations from a re-analysis of the deposited data

Results flagged for a closer look

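The genotype effect of Rnf145 differed between kidney and liver by 2.02 on the log2 scale, by the test of the difference itself. In 3 of the 36 sets of 5 libraries formed by the 9 genes and 4 groups, 1 library lay far from the others, and chance alone does this in about 1 in 20 sets. These were Abca1 in labelled knockout kidney 1 with 23.0 CPM, above its group, Arl4c in wild-type kidney 3 with 6.40 CPM, below its group, and Lpcat3 in wild-type liver 1 with 122 CPM, above its group. Wild-type kidney 3 is also the library with 50.8% mitochondrial counts, and the part of that in its Arl4c value was not tested.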

How the results depend on the processing

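Rnf145 stayed called in liver under 21 alternatives and in the difference between tissues under 20. Low counts of Abcg5 and Abcg8 in kidney kept them out of the test there. Of genes called in kidney (373), DESeq2 gave 1093, voom 2151, limma-trend 237, all libraries in one fit 948 and the set without wild-type kidneys 1 and 3 590, and leaving out each library gave 99 to 921. Of the 7 genes tested there, none was called, but 1 by DESeq2, 3 by voom, 1 without wild-type kidneys 1 and 3 and 0 to 1 with each library left out. In liver (893), DESeq2 gave 1448 and leaving out each library 575 to 913, and 2 of the 9 genes were called by DESeq2 and 2 without TMM. In the difference (265), DESeq2 gave 605, voom 681, no TMM 176, the set without labelled knockout livers 4 and 5 176, and leaving out each mouse 137 to 337, with 2 of the 9 genes called by DESeq2 and 3 by voom. The share of calls that were higher was 17.4% in kidney, 37.2% by voom, 27.6% with all libraries in one fit, 30.0% without wild-type kidneys 1 and 3 and 9.60% without TMM. In liver it was 32.3%, and 22.0% without TMM, and between tissues 55.0% and 79.8%.

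Signs turned among values that were not called. In kidney Abca1 was -0.065 without TMM and -0.12 to 0.15 with each library left out, and Mylip -0.12 to 0.30. In liver Mylip was 0.044 without labelled knockout livers 4 and 5, Arl4c -0.18 to 0.042 and Abcg8 -0.036 to 0.26 with each library left out. In the difference Abca1 was 0.053 with every gene of at least 1 count, 0.047 without wild-type kidneys 1 and 3 and -0.21 to 0.14 with each mouse left out. Abcg1 was -0.20 by voom, and Abcg8 0.16 by voom, 0.28 without wild-type kidneys 1 and 3 and -0.62 to 0.29 with each mouse left out. Lpcat3, called between the tissues, was 0.091 without TMM and missed the threshold with every gene of at least 1 count (adjusted p = 0.0728). The cause of these shifts was not tested.

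When the title number entered as a replicate block, 909 genes were called in kidney and 296 in liver. There Rnf145 was 0.78 (adjusted p = 0.0504) in kidney and -1.35 (0.0349) in liver, and Arl4c was 0.060 in liver. Equal numbers of different genotype share only a number, and their deviations correlated between 0.09 and 0.24 in kidney and between -0.04 and 0.001 in liver. With mouse as the replicate block, 181 genes were called in the difference and 8600 between the tissues. Neither block changed the call of any of the 9 genes.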
